A study of Mus musculus with 5 samples.

Results

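Expression of 10 genes of the gp130 pathway was followed in the mouse hippocampus after seizures. They are the cytokine genes Lif, Clcf1, Cntf and Il11, the receptor genes Lifr, Osmr, Il6st and Il6ra, the transcription factor gene Stat3 and the inhibitor gene Socs3. The genes were taken by symbol, and they make up 10 of the 55385 genes counted. An expression filter left 19768 genes for testing, among them 8 of the 10. Clcf1 and Cntf did not pass it.

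Cytokines of the interleukin-6 family signal through receptor complexes that share the subunit gp130, the product of Il6st. Binding of a cytokine activates JAK kinases bound to the receptor, which phosphorylate STAT3, and STAT3 then enters the nucleus and switches on genes that include its own inhibitor Socs3. In the brain the family is known for driving the reaction of astrocytes to injury and for supporting the survival of neurons.

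The study asked how strong neuronal activity changes the use of exons in hippocampal transcripts over time. It used exon arrays for this, and RNA sequencing as an independent check. Total RNA was sequenced from hippocampi of male C57/bl6 mice aged 3 months. Mice received kainic acid (20 mg/kg, intraperitoneal), an agonist of glutamate receptors that provokes seizures, and were killed 1 h, 4 h or 8 h after the first rearing, which the study took as seizure onset, and only animals that reached stage 5 of its seizure scale were used. There was 1 library of untreated mice, which had received no vehicle injection, 1 at 1 h, 2 at 4 h (replicate 1 and replicate 2) and 1 at 8 h. Injection and kainic acid therefore cannot be told apart in the comparisons with the control. The sources used here do not say whether a library came from 1 mouse, so a p value here measures only the spread between these samples.

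Wherever 5 values are listed, they stand for the control, 1 h, replicate 1 at 4 h, replicate 2 at 4 h and 8 h, in this order. Library sizes were 19100374, 17744508, 18250114, 19109204 and 16612225 reads on genes. Levels are given as normalized CPM, counts relative to library size (CPM) after scaling by the TMM method of edgeR, and as CPM per kb of exon where genes are compared with each other. A count of 3, taken as the floor, equalled 0.151 normalized CPM in the control and 0.178 in replicate 1 at 4 h. Intervals are exact 95% intervals, Poisson for counts and binomial for ratios of counts. They cover counting error only, since reads are not independent molecules, and a ratio between single libraries compares those libraries and not the conditions. The samples are bulk tissue, in which fewer cells of a type and less RNA per cell cannot be told apart.

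GENCODE M21 (GRCm38) places the ligand genes Lif at chr11:4257557-4272514 (plus strand), Clcf1 at chr19:4214238-4223490 (plus strand), Cntf at chr19:12763660-12765632 (minus strand) and Il11 at chr7:4772373-4782859 (minus strand). The receptor genes are Lifr at chr15:7090614-7197489 (plus strand), Osmr at chr15:6813577-6874969 (minus strand), Il6st at chr13:112464070-112510086 (plus strand) and Il6ra at chr3:89864059-89913196 (minus strand). Stat3 lies at chr11:100885098-100939540 (minus strand) and Socs3 at chr11:117966079-117970047 (minus strand). Lif, Stat3 and Socs3 thus lie on chromosome 11 and Lifr and Osmr are near each other on chromosome 15.

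The 4 h libraries stood apart from each other in several measures. Fos, an immediate early gene that marks recent neuronal firing, was at 10.8, 998, 519, 70.3 and 17.2 normalized CPM. The summed level of 5 choroid plexus and ependyma markers was 3939, 1668, 31.8, 4186 and 3042 normalized CPM, so that replicate 1 at 4 h nearly lacked them. All 5 of these markers had counts in each library, and the most abundant was Ttr, the transthyretin gene, with 16.3 normalized CPM in replicate 1 and 3966 in replicate 2. The 4 endothelial markers, led by Flt1, had 1446, 1292, 2105, 1339 and 1545 counts in sum, and the 5 blood cell markers, led by Hbb-bs, summed to 135, 113, 237, 150 and 182 normalized CPM. Both were highest in replicate 1 at 4 h. None of these markers was at 0 in a library. Reads on no gene made up 24.7%, 29.0%, 33.1%, 25.3% and 30.9% of all deposited reads. The part of these differences in the values below was not tested. Both 4 h libraries are therefore given separately, and the fitted 4 h values of the genes that differed most also with either one left out. A value with 1 left out is not a new fit. It is the log2 difference between the remaining 4 h library and the library it is compared with, under the same scaling.

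**Figure D1:**
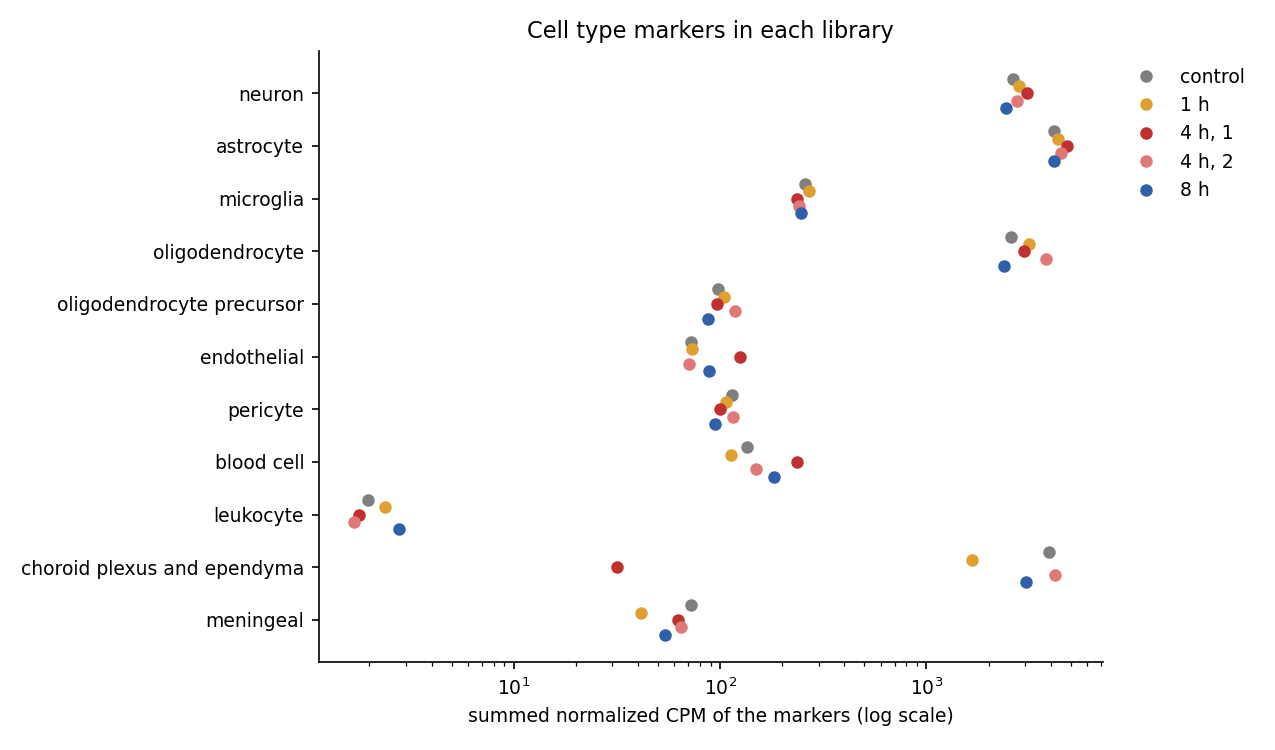
Summed normalized CPM of the markers of 11 cell types (log scale) in each library, with 1 point per library and cell type. The choroid plexus and ependyma markers lie at 31.8 in replicate 1 at 4 h and between 1668 and 4186 in the other libraries, whereas the astrocyte markers lie between 4127 and 4810 in all libraries.

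Markers of neurons, astrocytes and oligodendrocytes were detected in every library. The 6 neuron markers, led by Snap25, summed to between 2419 and 3074 normalized CPM, the 6 astrocyte markers, led by Slc1a2, to between 4127 and 4810, and the 4 oligodendrocyte markers, led by Mbp, to between 2374 and 3803. The 2 markers of oligodendrocyte precursors summed to between 87.5 and 118, the 2 pericyte markers to between 94.4 and 116, and the 4 meningeal markers to between 41.4 and 72.4. The 6 leukocyte markers reached only 1.69 to 2.79, with Ly6g at 0 in every library but the control and Cd3e at 0 in every library but that of 1 h. DESeq2 called 1 of the 6 neuron markers at 4 h, against 1.7% of all genes with an adjusted p, and edgeR called 0, against 0.00506% of all tested genes. The marker was Prox1, named after its values were seen, with log2 differences from the control of 1.51 and 0.99 in the pair. Among the leukocyte markers, S100a9 was the most abundant after kainic acid and Itgal in the control.

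Of the ligands, Lif had the largest counts. Lif encodes leukaemia inhibitory factor, which signals through a complex of LIFR and gp130. It had 10 (95% interval 4.80 to 18.4), 20, 79, 20 and 118 (97.7 to 141) counts. The corresponding levels were 0.502, 1.14, 4.69, 1.06 and 6.72 normalized CPM. Replicate 1 at 4 h and the 8 h library were thus high, and replicate 2 at 4 h lay at the level of the 1 h library. Relative to the control, the 4 libraries after kainic acid had ratios of 2.26 (1.01 to 5.42), 9.34 (4.82 to 20.2), 2.11 (0.940 to 5.04) and 13.4 (7.03 to 28.7). At 8 h Lif had the 22nd largest log2 fold change of the 19768 genes, 3.48 (SE 1.15). At 4 h it was 2.28 (SE 1.06), or 0.93 without replicate 1 and 2.97 without replicate 2.

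Il11 encodes interleukin 11, a cytokine that reaches gp130 through its own alpha receptor. It had 4, 6, 42, 5 and 10 counts. Only replicate 1 at 4 h was high, at 2.49 normalized CPM, while the other 4 libraries lay between 0.201 and 0.570. The ratio to the control was 12.4 (4.50 to 47.7) in replicate 1 and 1.32 (0.283 to 6.63) in replicate 2, and it was 2.84 (0.819 to 12.4) at 8 h. A change in replicate 2 or at 8 h was therefore not detectable at this depth. At 4 h the fitted log2 fold change was 2.24 (SE 1.56), and the plain log2 difference from the control was 0.27 without replicate 1 and 3.07 without replicate 2.

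The sequences upstream of Lif and Il11 are shown because the levels of both genes stood highest in replicate 1 at 4 h or at 8 h, and because both hold a motif of AP-1, the dimer of Fos and Jun proteins. RefSeq start sites (build GRCm38.p6) were given for 9 of the 10 genes, with 11 entries, and none was given for Clcf1. The 250 bases before each start were searched on both strands for TTCNNNGAA, a motif of STAT proteins, for TGANTCA, a motif of AP-1, and for TGACGTCA, a motif of CREB. No matches of different motifs overlapped in these windows. Bases that GENCODE M21 places in an exon are left off. Capitals mark the motif. The window of Lif lies on the plus strand at chr11:4257318-4257556 and that of the second Il11 entry on the minus strand at chr7:4778142-4778391. The Il11 window is upstream of this RefSeq start but within the span that GENCODE M21 gives the gene.
Lif: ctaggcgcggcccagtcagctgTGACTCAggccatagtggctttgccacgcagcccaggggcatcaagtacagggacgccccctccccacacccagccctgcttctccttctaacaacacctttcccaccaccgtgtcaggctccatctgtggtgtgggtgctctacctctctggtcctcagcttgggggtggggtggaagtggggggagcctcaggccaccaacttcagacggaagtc
Il11: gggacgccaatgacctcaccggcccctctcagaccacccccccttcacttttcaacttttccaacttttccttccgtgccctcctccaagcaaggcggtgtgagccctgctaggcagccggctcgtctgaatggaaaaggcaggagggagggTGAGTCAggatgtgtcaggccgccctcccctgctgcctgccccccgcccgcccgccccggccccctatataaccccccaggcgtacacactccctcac
The AP-1 motif was found in 6.75% of all 32851 windows of this length. Of the 11 windows it was in 3, those of Lif, Cntf and the second Il11 entry, with 1 match each. The window of the first Il11 entry, on the minus strand at chr7:4782858-4783107, did not hold it. Counted back from the start, the match begins at position -228 in Lif, -98 in Il11 and -245 in Cntf. The CREB motif, in 1.55% of all windows, was in none of them. A match describes the letters and is not a sign of binding.

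Cntf encodes ciliary neurotrophic factor, which is made by glia. It was low in every library, with 6, 5, 4, 3 and 4 counts, and the intervals of all 5 libraries overlapped. In GENCODE M21, 78.9% of its exon length lies in exons of Zfp91 on the same strand, so reads from that stretch could fit either gene, and how many reads this left out was not tested. Clcf1, for cardiotrophin-like cytokine factor 1, was listed at 0 in all 5 libraries. The nearby gene Pold4, for a subunit of DNA polymerase delta, and Gm45928, a readthrough gene on the same strand that shares exons with both, were also listed at 0 in all 5. In GENCODE M21 the readthrough gene shares 8.17% of the exon length of Clcf1 and 24.6% of that of Pold4, but the release used for counting is not given in the sources used here. No level of Clcf1 is read from these zeros, and Pold4 was looked at after the values of Clcf1 were seen.

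**Figure D2:**
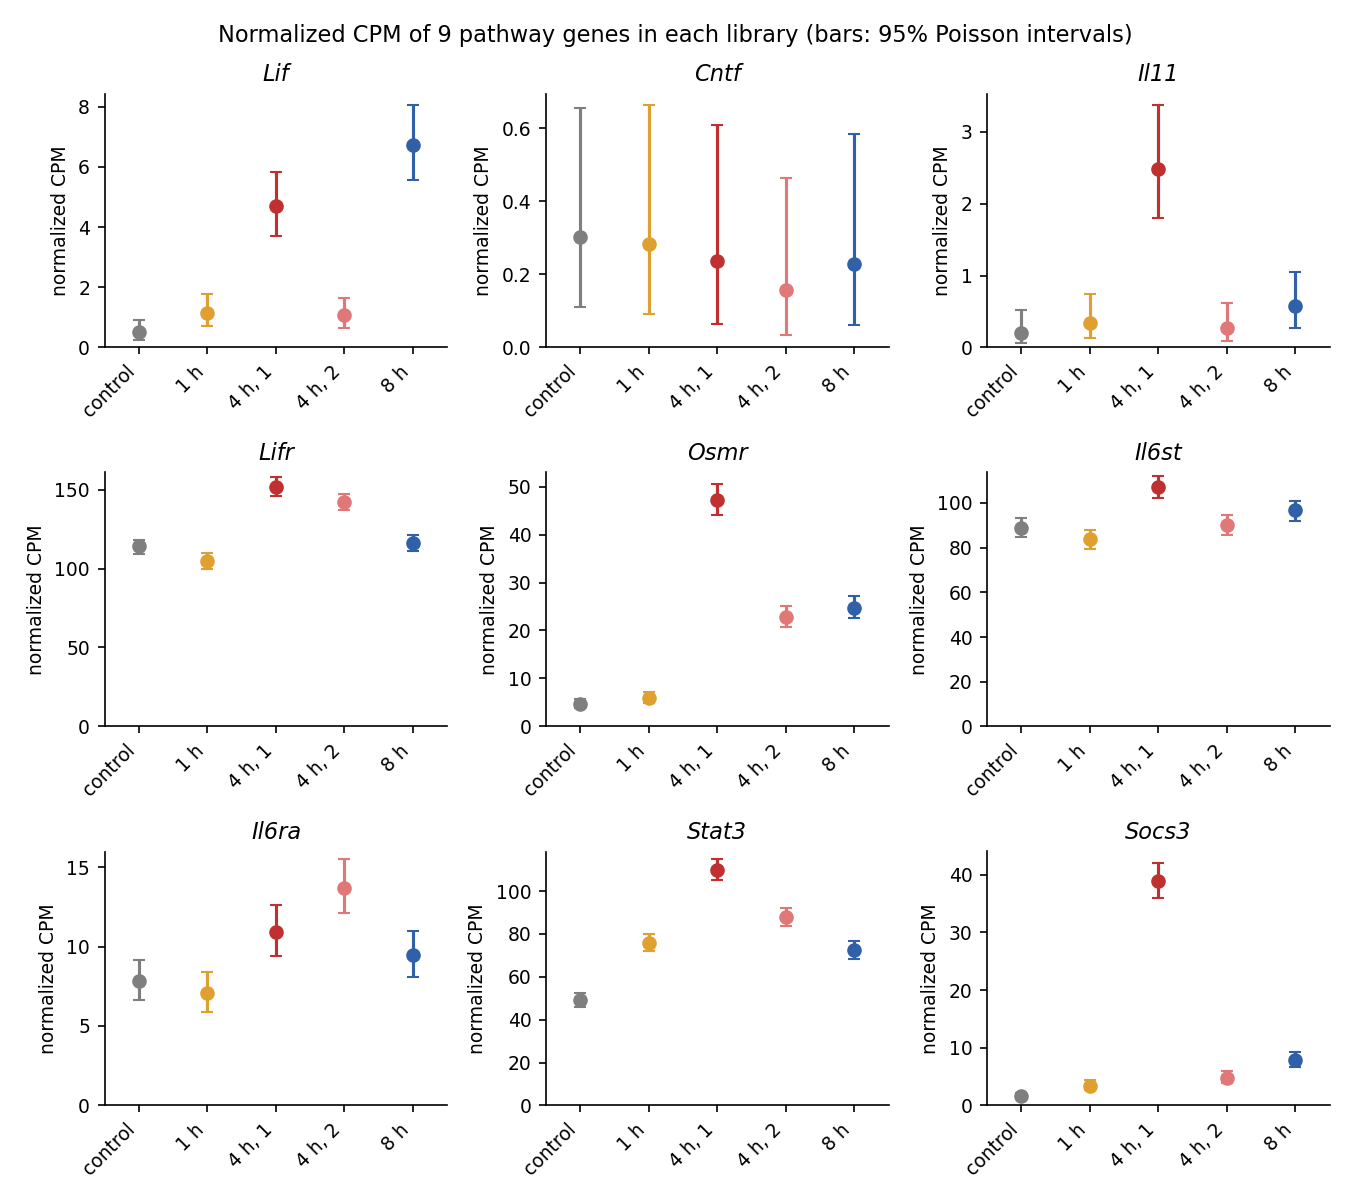
Normalized CPM of 9 pathway genes in each library, with 1 point per library and bars for exact 95% Poisson intervals. Axes start at 0 and differ between genes. Lif is highest at 8 h (6.72), and Il11, Osmr and Socs3 are highest in replicate 1 at 4 h (2.49, 47.2 and 38.9).

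Among the receptors, Osmr differed most between libraries. Osmr encodes the oncostatin M receptor, which pairs with gp130. Its counts were 94, 105, 796, 434 and 434, or 4.72, 5.97, 47.2, 22.9 and 24.7 normalized CPM. Both 4 h libraries and the 8 h library were high, with no overlap with the control or the 1 h library. The ratio to the control was 10 (8.07 to 12.5) and 4.86 (3.88 to 6.14) in the 4 h pair and 5.24 (4.19 to 6.62) at 8 h, whereas at 1 h it was 1.26 with an interval from 0.948 to 1.69. At 4 h the log2 fold change of Osmr was 2.86 (SE 0.53), or 2.25 without replicate 1 and 3.29 without replicate 2, and its value for 8 h was 2.36 (SE 0.56). It ranked 110th at 4 h and 78th at 8 h among the 19768 genes ordered by log2 fold change.

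The other receptor genes differed less between libraries. Lifr, for the LIF receptor, had 2264, 1846, 2565, 2688 and 2039 counts. Both 4 h libraries lay above the others, at 152 and 142 normalized CPM against 105 to 116 elsewhere, with ratios to the control of 1.34 (1.27 to 1.42) and 1.25 (1.18 to 1.32). Il6st had 1774, 1472, 1804, 1705 and 1697 counts. Its level lay between 83.7 and 107 normalized CPM, and replicate 2 at 4 h equalled the control (ratio 1.01, interval 0.946 to 1.08). The ratio was 0.94 (0.876 to 1.01) at 1 h, 1.2 (1.13 to 1.28) in replicate 1 at 4 h and 1.09 (1.02 to 1.16) at 8 h. Il6ra encodes the alpha chain of the interleukin-6 receptor. It had 156, 124, 184, 259 and 166 counts, and here replicate 2 was the higher of the pair, at 13.7 normalized CPM against 10.9 in replicate 1 and 7.83 in the control. The log2 fold changes at 4 h were 0.37 (SE 0.17) for Lifr, 0.15 (SE 0.19) for Il6st and 0.64 (SE 0.31) for Il6ra. For Il6st the value was 0.02 without replicate 1 and 0.27 without replicate 2.

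Stat3, for the transcription factor downstream of gp130, was higher than the control in all 4 libraries after kainic acid. It had 978, 1334, 1859, 1661 and 1270 counts. The levels were 49.1, 75.8, 110, 87.7 and 72.4 normalized CPM, and the last 4 of these were 1.54 (1.42 to 1.68), 2.25 (2.08 to 2.43), 1.79 (1.65 to 1.94) and 1.47 (1.36 to 1.60) times the control. The 4 h pair was highest, and the libraries of 1 h and 8 h lay between it and the control. The log2 fold changes at the 3 times were 0.63 (SE 0.24), 1.01 (SE 0.22) and 0.56 (SE 0.24), and the 4 h value was 0.84 without replicate 1 and 1.17 without replicate 2. Exons of Stat5a on the opposite strand cover 0.756% of the exon length of Stat3, and exons of Gm42809 cover 2.80% of that of Il6ra. Since the strand setting of the counting is not given in the sources used here, reads from these stretches are uncertain.

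Socs3 encodes suppressor of cytokine signalling 3, which binds gp130 and its JAK kinases and ends the signal. It had 31 (21.1 to 44.0), 60 (45.8 to 77.2), 655 (606 to 707), 91 (73.3 to 112) and 138 (116 to 163) counts. In normalized CPM this was 1.56, 3.41, 38.9, 4.81 and 7.86. All 4 libraries after kainic acid were above the control, and replicate 1 at 4 h stood far above the rest. Their ratios to it were 2.19 (1.40 to 3.50), 25.0 (17.4 to 37.1), 3.09 (2.04 to 4.81) and 5.05 (3.40 to 7.72). The log2 fold changes were 1.08 (SE 1.43), 3.72 (SE 1.37) and 2.26 (SE 1.41) at the 3 times, and the 4 h value was 1.56 without replicate 1 and 4.55 without replicate 2. Among the 19768 genes Socs3 ranked 42nd at 4 h and 98th at 8 h.

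The window upstream of Socs3 is shown because it was the only one of the 11 with a STAT motif. It lies on the minus strand at chr11:117969452-117969616 (RefSeq, GRCm38.p6), with the motif in capitals and the 85 bases next to the start, which hold an annotated exon, left off. The window is upstream of the RefSeq start but within the span that GENCODE M21 gives the gene.
Socs3: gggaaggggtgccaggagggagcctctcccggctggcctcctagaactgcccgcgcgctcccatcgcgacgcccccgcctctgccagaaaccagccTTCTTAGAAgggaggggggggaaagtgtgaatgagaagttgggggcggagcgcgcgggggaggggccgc
The match begins at position -154 from the start. Windows with a STAT motif made up 7.02% of all 32851. No match means only that these letters are not in the window.

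Within the pair at 4 h, replicate 1 was the higher for Lif, Il11, Osmr and Socs3. The ratio of replicate 1 to replicate 2 was 4.44 (2.69 to 7.65) for Lif, 9.43 (3.74 to 30.6) for Il11, 2.06 (1.83 to 2.32) for Osmr and 8.08 (6.48 to 10.2) for Socs3. It was 1.26 (1.18 to 1.34) for Stat3, 1.19 (1.11 to 1.27) for Il6st, 1.07 (1.01 to 1.13) for Lifr and 0.798 (0.657 to 0.968) for Il6ra. Thus 4 of the 8 tested genes differed at least 2-fold between the libraries with replicate 1 higher, against 6.06% of all tested genes, and 0 with replicate 1 lower, against 3.82%. Il11 passed the expression filter only through replicate 1 at 4 h (42 counts) and the 8 h library (10 counts), its highest. Its place in this count is therefore partly fixed by the filter.

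**Figure D3:**
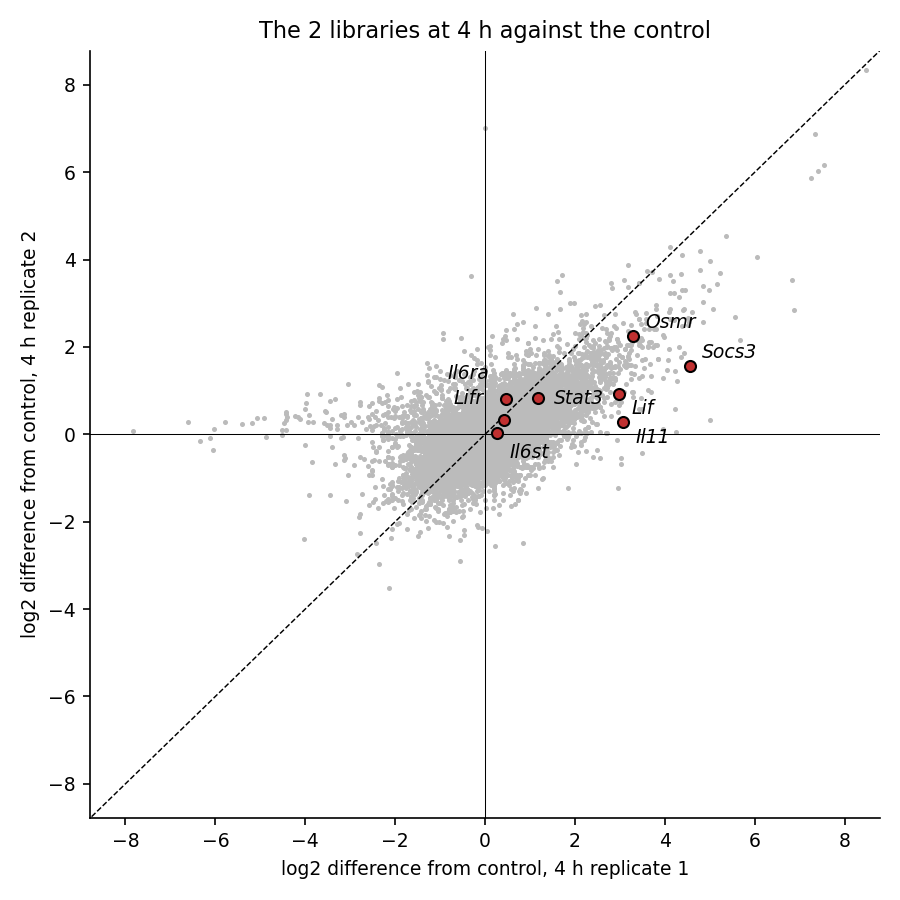
Log2 difference from the control in replicate 1 (horizontal) and replicate 2 (vertical) at 4 h for 19768 tested genes, in grey, and the 8 tested pathway genes, in red. On the dashed line both libraries differ equally from the control. Socs3 (4.55 and 1.56), Il11 (3.07 and 0.27), Lif (2.97 and 0.93) and Osmr (3.29 and 2.25) lie below it.

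At 1 h against the control, Lif and Socs3, 2 of 8 tested genes, were at least 2-fold higher (4.14% of all tested genes) and 0 were at least 2-fold lower (2.53%). Their log2 fold changes of 1.03 and 1.08 were smaller than their SE of 1.20 and 1.43. At 4 h, where both libraries had to pass, Osmr and Socs3 were at least 2-fold higher (3.91% of all) and 0 were lower (1.09%). At 8 h, Lif, Il11, Osmr and Socs3 were at least 2-fold higher (5.24%) and 0 lower (2.47%). Of these, Il11 had a log2 fold change of 1.13, smaller than its SE of 1.83, and the interval of its ratio included 1. Il11 also passed the expression filter only through replicate 1 at 4 h and this 8 h library. The median log2 fold change of the 8 genes was 0.43, 1.63 and 0.84 at the 3 time points. Without replicate 1 the median at 4 h was 0.82, with 2 of the 8 genes at least 2-fold higher (5.33% of all tested genes), and without replicate 2 it was 2.07, with 5 (10.6%). The median of all tested genes lay between -0.01 and 0.01. These comparisons share the control library.

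Between time points, Osmr was the 1 gene of 8 at least 2-fold higher in both 4 h libraries than at 1 h (2.83% of all), with 0 lower (1.19%). Its ratio to the 1 h library was 7.91 (6.45 to 9.79) in replicate 1 and 3.84 (3.10 to 4.80) in replicate 2. From 4 h to 8 h none of the 8 passed 2-fold against both 4 h libraries, either higher (1.74%) or lower (2.32%). With 1 library in place of both, 4 genes, Lif, Il11, Osmr and Socs3, were higher at 4 h than at 1 h without replicate 2 (7.87% of all), and Osmr alone without replicate 1 (5.14%). From 4 h to 8 h, Il11 and Socs3 were lower without replicate 2 (7.77%), and Lif was higher without replicate 1 (4.21%). The direction after 4 h depended on which library was taken for 4 of the tested genes, Socs3, Il11, Osmr and Il6st. The ratio of 8 h to 4 h was 0.202 (0.167 to 0.243) for Socs3 with replicate 1 and 1.64 (1.25 to 2.16) with replicate 2. For Osmr it was 0.524 (0.465 to 0.589) and 1.08 (0.942 to 1.24), for Il11 it was 0.229 (0.102 to 0.463) and 2.16 (0.672 to 8.04), and for Il6st it was 0.904 (0.845 to 0.966) and 1.07 (1.00 to 1.15). Lif was higher at 8 h than in either, with ratios of 1.43 (1.07 to 1.93) and 6.36 (3.94 to 10.8), and Stat3 was lower than in either, with 0.656 (0.611 to 0.705) and 0.825 (0.766 to 0.888).

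No pathway gene passed the threshold of 0.05 by edgeR, with its quasi-likelihood test and Benjamini-Hochberg adjustment. The fit has 1 residual degree of freedom, from the 4 h pair, and the fit takes the spread of this pair for the single libraries as well. The adjusted p of edgeR for the 8 genes ranged from 0.259 (Osmr) to 0.788 (Il6st) at 4 h and from 0.885 (Osmr) to 1 at 8 h, and all were 1 at 1 h. Across all tested genes the edgeR test called 0 genes (0%) at 1 h, 1 gene (0.00506%) at 4 h, 0 (0%) at 8 h, 1 (0.00506%) for 4 h against 1 h and 0 (0%) for 8 h against 4 h. Both calls were ETV3L, named after its value was seen. Before adjustment, p lay under 0.05 for 478, 2291, 892, 1567 and 1726 genes in these comparisons. DESeq2 called 56, 238, 33, 109 and 129 genes, or 0.449%, 1.70%, 0.235%, 0.823% and 0.920% of those with an adjusted p, and limma-voom called 0 in each.

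DESeq2 called Osmr and no other pathway gene at 4 h (adjusted p = 8.04e-06, higher in 2 of 2 libraries), at 8 h (adjusted p = 0.0301, higher in 1 of 1) and for 4 h against 1 h (adjusted p = 0.000438, higher in 2 of 2). It gave no adjusted p for Il11 in any comparison, nor for Lif at 1 h or for 4 h against 1 h, so these were not judged by it. Over 7 alternatives (edgeR, DESeq2 or limma) the adjusted p of Osmr ranged from 8.86e-15 to 0.355 at 4 h, from 3.38e-08 to 0.999 at 8 h and from 1.21e-11 to 0.573 for 4 h against 1 h. Scaling by library size alone, the edgeR test called Osmr at 4 h, where it called 1.20% of all tested genes, and for 4 h against 1 h, where it called 0.339%. Without a filter on low counts, edgeR gave no weight to a gene's own spread (infinite prior degrees of freedom, against 4.42 with the filter). For each gene edgeR took the spread fitted across genes of like abundance. It then called Lif, Il11, Osmr, Stat3 and Socs3 at 4 h (3.97% of 32732 genes), Lif, Osmr and Socs3 at 8 h (0.852%), Osmr and Socs3 for 4 h against 1 h (2.21%) and Socs3 for 8 h against 4 h (2.92%). Each gene called at 4 h was higher than the control in 2 of 2 libraries, but in replicate 2 the intervals of Lif (0.940 to 5.04) and Il11 (0.283 to 6.63) included 1. The 8 h library was lower in Socs3 than replicate 1 and higher than replicate 2.

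Compared per kb of exon within a library, Lifr was the most abundant of 9 genes, Clcf1 left aside, in all 5 libraries, with 9.74 to 14.1 CPM per kb. Il6st and Stat3 followed, except in replicate 1 at 4 h, where Socs3 was second. There Socs3 (13.4) was close to Lifr (14.1), and their order was not tested against counting error. In the control, Il6st was at 8.02, Stat3 at 5.15, Il6ra at 0.906, Socs3 at 0.538 and Osmr at 0.389 CPM per kb. Lif and Il11 were at 0.115 and 0.0965, and the interval of their ratio (0.345 to 5.22) shows that these neighbours in the order did not differ beyond counting error. At 1 h, Stat3 (7.96) and Il6st (7.54) were close to each other.

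The balance between receptor genes differed between libraries. Lifr exceeded Osmr per kb by factors of 27.1 (22.0 to 33.6), 19.8 (16.2 to 24.3), 3.62 (3.34 to 3.93), 6.96 (6.29 to 7.72) and 5.28 (4.76 to 5.87). The 4 h and 8 h libraries thus all lay below the control and the 1 h library. Osmr was below Il6ra in the control, with a ratio of 0.430 (0.329 to 0.559), and at 1 h, with 0.604 (0.461 to 0.79). It was above Il6ra in the 4 h pair, with 3.09 (2.63 to 3.64) and 1.20 (1.02 to 1.40), and at 8 h, with 1.87 (1.56 to 2.24). By contrast the ratio of Lifr to Il6st stayed between 1.24 and 1.62. The ratio of Stat3 to Socs3 was 9.57 (6.70 to 14.2), 6.75 (5.21 to 8.89), 0.861 (0.787 to 0.943), 5.54 (4.48 to 6.92) and 2.79 (2.34 to 3.35). Only in replicate 1 at 4 h did Socs3 exceed Stat3.

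**Figure D4:**
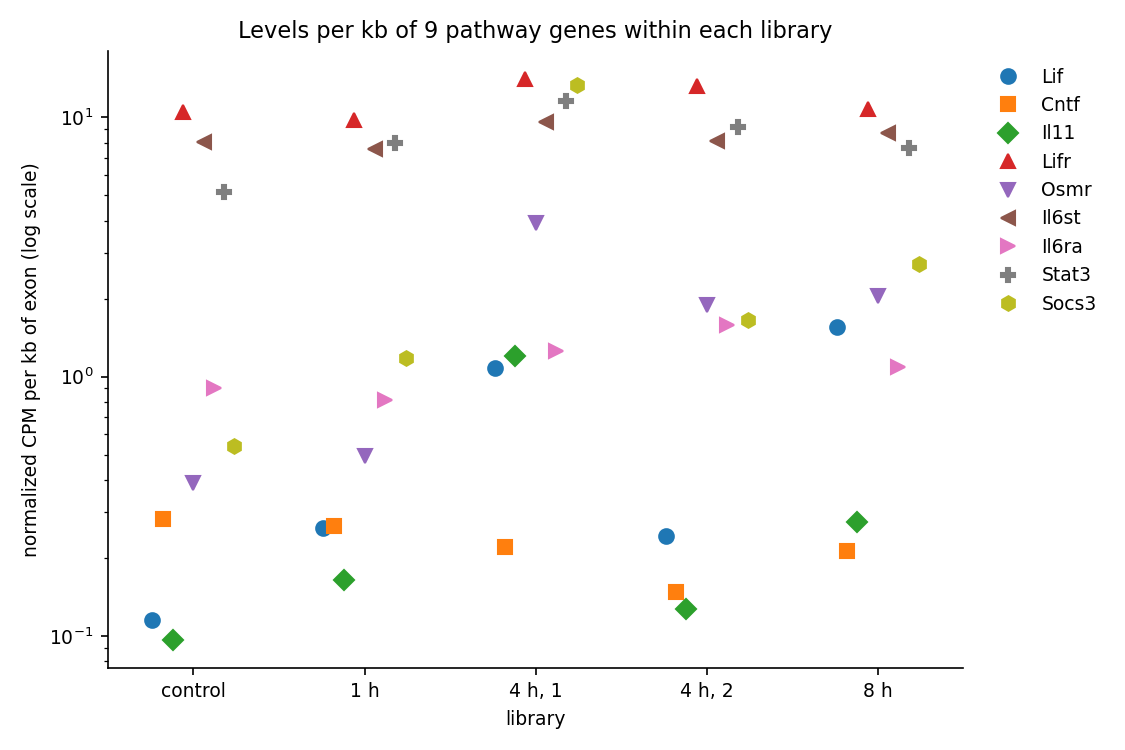
Normalized CPM per kb of exon (log scale) of 9 pathway genes in each library, with 1 symbol per gene, shifted sideways for visibility. Lifr is highest in every library, Osmr lies between 0.389 (control) and 3.90 (replicate 1 at 4 h), and Socs3 between 0.538 and 13.4 in the same libraries.

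The other genes of the pathway were taken as lists, whose counts are to be read against the shares of all tested genes past 2-fold, 4.14% higher and 2.53% lower at 1 h, 3.91% and 1.09% at 4 h, and 5.24% and 2.47% at 8 h. In lists this small, 0 or 1 gene past 2-fold is not read as setting a list apart, and no list was tested against these shares. Of 7 further ligands and secreted partners, 3 passed the filter and 0 were 2-fold higher or lower in any comparison, with both 4 h libraries required. Without replicate 2, 1 was higher at 4 h than in the control (10.6% of all tested genes) and 0 lower. For 4 h against 1 h, 1 was then higher (7.87%) and 1 lower (853 of 19768 genes). For 8 h against 4 h, 1 was higher (1220 of 19768) and 1 lower (7.77%). Without replicate 1, only 4 h against 1 h differed, with 1 lower (784 of 19768). Osm, for oncostatin M, the ligand of OSMR, had 4, 9, 26, 2 and 3 counts, so that only replicate 1 at 4 h was high (ratio 7.68, interval 2.67 to 30.3). Il6, for interleukin 6 itself, had 2, 5, 1, 0 and 2 counts, at or near the floor. Ctf2 and Il27 were listed at 0 in all 5 libraries.

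All 3 other receptor subunits passed the filter. Il27ra, for the receptor of interleukin 27, was the 1 at least 2-fold lower at 4 h and at 8 h, with 33, 15, 8, 11 and 13 counts. Il11ra1, which binds IL-11, and Cntfr, which binds CNTF, had ratios to the control between 0.848 and 1.08 and between 0.872 and 1.04. Of 9 tested JAK kinase and other STAT genes, 0 were 2-fold higher or lower than the control at any of the 3 times, and Tyk2 was at least 2-fold lower at 4 h than at 1 h (1.19% of all). The JAK kinase gene Tyk2 was at 22.6, 23.8, 9.49, 11.4 and 18.9 normalized CPM, and another, Jak2, at 59.5, 69.8, 114, 81.6 and 70.4. The 4 h pair was thus low for Tyk2 and high for Jak2. In the 4 h pair the log2 differences from the control were 0.49 and 0.83 for Stat5a and -0.60 and -0.63 for Stat2, genes of other STAT proteins.

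Among 15 tested inhibitors other than Socs3, 1 was at least 2-fold higher at 4 h (3.91% of all tested genes) and 0 lower (1.09%), and 0 passed in either direction at 1 h or 8 h. This was Socs1, a relative of Socs3, with 7, 5, 16, 18 and 3 counts, named after its values were seen. Its ratio to the control was 2.70 (1.05 to 7.77) and 2.71 (1.08 to 7.67) in the 4 h pair, and it also passed 2-fold as higher at 4 h than at 1 h (2.83% of all) and as lower at 8 h than at 4 h (2.32%). The phosphatase gene Ptpn1 had 41.8, 56.3, 85.5, 62.6 and 46.7 normalized CPM, and Socs5, of the same family as Socs3, had 118, 119, 180, 172 and 99.5. In the 4 h pair the log2 differences from the control were 0.29 and 0.56 for Cish, 0.60 and 0.18 for Socs6, and 0.41 and 0.36 for Ptpn2. The median log2 fold change of the 15 genes at 4 h was 0.31, or 0.19 without replicate 1 and 0.29 without replicate 2. At least 2-fold higher than the control at 4 h were 1 without replicate 1 (5.33% of all tested genes) and 2 without replicate 2 (10.6%), with 0 lower in each case. ETV3L, the only call of edgeR, is in none of these lists.

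Of 17 genes known to respond to STAT3, 15 were tested. At least 2-fold higher were 4 at 1 h (4.14% of all tested genes), 8 at 4 h (3.91%) and 8 at 8 h (5.24%), and 0 were lower (2.53%, 1.09% and 2.47%). From 1 h to 4 h, 5 were higher (2.83% of all) and Junb was lower (1.19%), and from 4 h to 8 h 0 were higher (1.74%) and Junb and Pim1 were lower (2.32%). The list's median log2 fold change was 0.07, 1.39 and 1.28 at the 3 time points. At 4 h it was 1.14 without replicate 1, with 8 genes higher (5.33% of all tested genes), and 1.60 without replicate 2, with 14 higher (10.6%). Also without replicate 2, 11 were higher (7.87%) and 1 lower (853 of 19768 genes) for 4 h against 1 h. For 8 h against 4 h, 7 were then lower (7.77%) and 0 higher (1220 of 19768). Without replicate 1, 5 were higher (5.14%) and 1 lower (784 of 19768) for 4 h against 1 h. For 8 h against 4 h, 2 were then lower (742 of 19768) and 0 higher (4.21%). DESeq2 called 1, 6 and 1 of them, against 0.449%, 1.70% and 0.235% of all genes with an adjusted p, and edgeR and limma-voom called 0 at each time. Several of these genes, Junb and Myc among them, also answer to signals other than STAT3, and Gfap, Vim and Cd44 are expressed by astrocytes. The list was chosen with earlier results of these data known, so the shares of all genes are no test of it. Lcn2, Timp1 and Bcl3 passed the expression filter only through libraries after kainic acid in which they were high.

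Pim1, a kinase gene, had 1.36, 14.7, 52.7, 15.8 and 4.50 normalized CPM. Junb, for a subunit of AP-1, was highest at 1 h, with 26.3, 557, 161, 37.9 and 17.5 normalized CPM. For both genes replicate 1 at 4 h exceeded replicate 2, and at 8 h Junb lay below the control. Lcn2, for lipocalin 2, a secreted protein of reactive astrocytes, had 6, 2, 83, 101 and 101 counts. It was high in both 4 h libraries and at 8 h, with ratios to the control of 16.4 (7.20 to 45.8), 17.7 (7.86 to 49.4) and 19.1 (8.48 to 53.3), and the pair did not differ in it beyond counting error. Timp1, for an inhibitor of metalloproteinases, had 3, 4, 93, 16 and 13 counts, and Bcl3, for a cofactor of NF-kB, had 6, 3, 29, 10 and 20. For Timp1 the ratio to the control was 36.6 (12.2 to 181) in replicate 1 and 5.61 (1.61 to 30.1) in replicate 2. Gfap, the gene of the astrocyte filament protein, was named after its values were seen, as the 1 gene of the list that DESeq2 called at 8 h. It had 221, 271, 595, 510 and 587 normalized CPM, so the later libraries lay close together and above the others. DESeq2 gave Gfap an adjusted p of 0.000443 at 4 h and 0.0079 at 8 h, and edgeR gave 0.242 and 0.757. Mcl1, for a survival factor of the BCL2 family, was the 1 gene DESeq2 called at 1 h (adjusted p = 0.0247), with 55.4, 168, 197, 123 and 86.0 normalized CPM. It too was named after its values were seen, and edgeR gave it an adjusted p of 1 at 1 h.

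**Figure D5:**
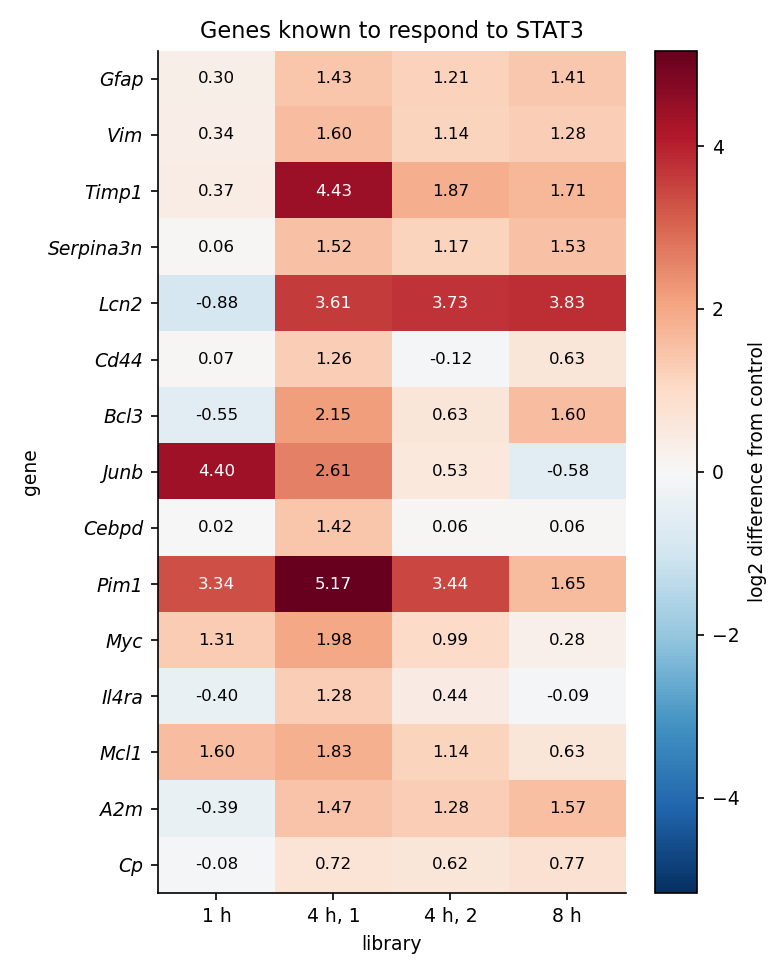
Log2 difference from the control (colour and number) of 15 tested genes known to respond to STAT3, listed downwards, in the 4 libraries after kainic acid, listed across. Junb is highest at 1 h (4.40), Pim1 and Timp1 are highest in replicate 1 at 4 h (5.17 and 4.43), and Gfap lies between 1.21 and 1.43 in the 4 h and 8 h libraries.

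As a check of the treatment, 6 of 6 activity-regulated genes (Fos, Arc, Npas4, Egr1, Nr4a1 and Bdnf) were at least 2-fold higher at 1 h (4.14% of all tested genes), 3 at 4 h (3.91%) and 1 at 8 h (5.24%). Without replicate 2, 6 were higher at 4 h (10.6%). Npas4, a transcription factor gene induced by calcium entry, had 78, 12204, 2189, 93 and 90 counts. Nr4a1 had 673, 10641, 2747, 655 and 377, and Egr1 had 580, 3781, 1668, 584 and 334. For these 3 genes, replicate 1 at 4 h lay between the 1 h library and replicate 2, and replicate 2 was close to the control. Arc had 147, 2020, 2590, 927 and 151 normalized CPM, and Bdnf had 43.6, 208, 753, 316 and 96.6, so both 4 h libraries were high for these.

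For 1 ligand, 1 receptor and the inhibitor, the tested genes with the most similar pattern were sought among 14326 with at least 50 counts in a library. Likeness was the distance over the 4 log2 differences from the control, so a smaller value is closer, and the 4 differences share the control library. Closest to Osmr were Lox (0.66), which encodes an enzyme that crosslinks collagen, the angiopoietin gene Angpt2 (0.82), Slco5a1 (0.87), Glipr2 (0.97) and Rhoj (1.00). In all 5, the 4 h pair and the 8 h library exceeded the control at least 2-fold. Closest to Socs3 were Timp1 (0.96), Mpo (1.28), Aldh1a3 (1.37), C5ar1 (1.38) and Sdcbp2 (1.46), each with replicate 1 at 4 h as its highest library. Mpo had 1 count in the control and Timp1 had 3, so their log2 differences depend on the prior count. Closest to Lif were Serpinf2 (1.50), Lox (1.67), Ccn4 (1.68), C5ar1 (1.68) and Angpt2 (1.74), which were less close than the neighbours of Osmr.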

How the data were processed

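The authors made stranded paired-end libraries from hippocampal total RNA, aligned the reads and deposited raw counts of reads per gene, 1 table per library. The submitters' processing notes name STAR 2.5.1b, HTSeq and build GRCm38.p4. No source used here gives the HTSeq version, the strand setting or the annotation release. Summary lines entered neither library sizes nor tests. They held reads on no gene (24.7% to 33.1% of deposited reads), ambiguous reads (1.26% to 1.52%) and reads aligned more than once (9.67% to 11.6%).

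Groups followed the labels. The analysis ran in R (4.3.3). edgeR (4.0.16) was used with filterByExpr, TMM scaling and a quasi-likelihood fit of 4 groups. The contrasts were every time against the untreated library, 4 h against 1 h, and 8 h against 4 h. P values were adjusted over all tested genes by Benjamini-Hochberg. A prior count of 2 was added for log2 fold changes, and each SE is the fitted coefficient without that prior divided by the square root of F. A gene passed 2-fold when its log2 normalized CPM differed by at least 1 in size, against both 4 h libraries where these were involved. The settings varied were size factors (median of ratios, or library size alone), the filter (none, or at least 10 counts in every library), the tool (DESeq2 1.42.0, or voom of limma 3.58.1), the prior count (0.125) and the 4 h library left out. With a 4 h library left out, no model was fitted anew, and the difference in log2 normalized CPM was taken.

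Gene positions and merged exon lengths came from GENCODE M21 (GRCm38), which holds 55144 of the 55385 identifiers, 54487 with the same version, including all 10 pathway genes. Plots were made in Python (3.11.15) using matplotlib (3.10.9), and intervals using scipy (1.17.1). All 10 pathway genes are named in each comparison. The rule for each other list took at most 5 genes, those with the largest log2 fold change in size at 4 h among genes with at least 20 counts in a library, and for Lif, Osmr and Socs3 the 5 genes with the closest pattern. Named beyond the rule, after their values were seen, were Socs1, Gfap, Mcl1, Prox1, ETV3L, Pold4, Gm45928, Egr1 and, as genes under the filter, Il6, Ctf2 and Il27. Genes named only as markers, as overlapping genes or as background (Myc, Vim, Cd44) are outside it too. A few genes of the lists are not reported here. The pathway genes and the lists were chosen with earlier results of these data known.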

Additional observations from a re-analysis of the deposited data

Results flagged for a closer look

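For 3 receptor genes, Lifr, Il6st and Il6ra, the difference from the control had the opposite sign at 1 h and at 8 h, with 1 library at each time, and the difference between these times was not tested. Lifr differed from the control by -0.12 at 1 h and 0.03 at 8 h on the log2 scale, a gap of 0.15. Il6st differed by -0.09 and 0.12, a gap of 0.21, and Il6ra by -0.15 and 0.27, a gap of 0.42. All 6 differences were smaller than their SE (0.19 for Lifr, 0.22 for Il6st and 0.35 for Il6ra). The interval of the ratio to the control included 1 for Lifr at 8 h (0.963 to 1.09), for Il6st at 1 h (0.876 to 1.01) and for Il6ra at 1 h (0.705 to 1.15) and 8 h (0.965 to 1.51). It did not include 1 for Lifr at 1 h (0.868 to 0.982) and Il6st at 8 h (1.02 to 1.16), but it covers counting error only. The signs against the control are thus uncertain for all 3 genes. The ratio of the 8 h to the 1 h library was 1.11 (95% counting interval 1.04 to 1.18) for Lifr, 1.16 (1.08 to 1.24) for Il6st and 1.34 (1.06 to 1.71) for Il6ra.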

How the results depend on the processing

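Of 323 values of the 8 tested pathway genes under an alternative, 293 kept their direction and their side of the threshold or moved by less than their SE, 16 kept their direction and passed the threshold, 7 moved by more than their SE without a 4 h library, and 7 changed sign. Where DESeq2 gave no adjusted p, for Il11 and in part for Lif, the value was counted as not called. The sign changes were, without replicate 1 at 4 h, Lif (-0.0958) and Il11 (-0.27) for 4 h against 1 h, and Il11 (0.862), Osmr (0.109), Il6st (0.102) and Socs3 (0.697) for 8 h against 4 h. Without replicate 2 these were 1.94, 2.53, -1.94, -0.93, -0.15 and -2.29. Il6st for 8 h against 4 h was also 0.119 with library size alone, a scaling that moved the median of all genes from -0.019 to 0.12 there, and to -0.111 at 4 h against the control. In the order 1 h, 4 h and 8 h against the control, 4 h against 1 h and 8 h against 4 h, edgeR called 0, 1, 0, 1 and 0 genes. The counts were 57, 237, 22, 67 and 120 with library size alone, 285, 1300, 279, 725 and 957 with no filter, and 56, 238, 33, 109 and 129 by DESeq2. Median-of-ratios factors and limma-voom gave 0 in each. At least 10 counts in every library gave 1 at 1 h against the control and 0 in the others. That filter tests fewer genes (16420) and left 433, 440, 446, 234 and 145 genes at least 2-fold higher, against 819, 773, 1035, 559 and 344, and 136, 120, 231, 124 and 245 lower, against 501, 215, 489, 236 and 459. Leaving out a 4 h library requires 1 library to pass in place of both, and gave 1053 to 2103 higher and 528 to 1122 lower at 4 h against the control, 1017 to 1556 and 784 to 853 for 4 h against 1 h, and 833 to 1220 and 742 to 1535 for 8 h against 4 h. For the other differences the cause was not tested. Low counts limit Il11, Cntf and Osm, for which small differences were not detectable at this depth.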
